A study of Mus musculus with 2 samples.

Results

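On mouse chromosome 15, the anti-HB9-PO4 ChIP-seq peaks beyond 72 Mb were denser along the chromosome and wider than those before it. This distal part held 1803 of the 3878 peaks of chromosome 15, and of the 83676 in the whole list. Its members were chosen by position: each peak with its midpoint at 72 Mb (mm9) or beyond is a member. The boundary itself had been placed where peak widths on this chromosome differed most, and it was selected on the widths of these same peaks. Width, score, density and spacing all come from the same comparison of ChIP and input, so every difference below is a description and none was tested.

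The cells were MIN6-4N, a mouse insulinoma line used as a model of pancreatic β-cells, transfected with the plasmid pcDNA3.1-myc-his-HLXB9 by lipofectamine 2000. Both groups came from such transfected cells, with chromatin taken after 48 hours. The ChIP group was 1 library made with anti-HB9PO4, and the input group was 1 library made with no antibody. There is therefore no replicate error, and neither untransfected cells nor a control antibody had a library. Both the transfected tagged protein and the cell's own could be bound by the antibody, and these cannot be told apart.

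The protein HLXB9, which also goes by HB9 and MNX1, is a transcription factor of the homeodomain class and is needed for the development and identity of β-cells and of motor neurons. Homeodomain proteins bind short AT-rich DNA sites, often near genes and their enhancers. A peak is a region in which sequenced ChIP fragments exceed a background, so its width reflects both how far the enrichment reaches and how the caller draws its edges. The far end of mouse chromosome 15 is known for its gene clusters, among them the HoxC genes, which encode homeodomain factors of body patterning, and the type II keratins, structural proteins of epithelia. In the RefSeq gene table of another assembly (GRCm38.p6), the 9 HoxC genes followed each other directly and only 15 protein-coding genes of chromosome 15 came after them. Of 22 keratins looked up (type II genes and Krt18, the partner of Krt8), 20 were found on chromosome 15, with 49 protein-coding genes after the last of them. The peaks are placed in mm9, so none was assigned to a gene and no sequence under a peak was read.

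The distal peaks were wider through the whole range of widths. Their median width was 838 bp (95% binomial order-statistic interval 818 to 869; interquartile range 629.5 to 1156). On the rest of chromosome 15 the median was 598 bp (587 to 609; interquartile range 465.5 to 752.5). Over the peaks of all autosomes the median was 658 bp, so the rest of chromosome 15 lay below it. The 10th percentiles of the distal part and the rest were 489 bp and 397.4 bp, and the 90th percentiles were 1575 bp and 977.6 bp. The narrow end of the distribution was thinner as well, since 201 distal peaks (11.1%, Wilson 95% interval 9.78% to 12.7%) were under 500 bp, against 650 (31.3%, 29.4% to 33.4%) on the rest. All intervals given here count peaks as if they were independent, although they share 1 pair of libraries, and so hold counting error alone. The interquartile ranges of the distal part and the rest overlapped, so a single peak's width does not tell on which side it lay.

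Most broad peaks of chromosome 15 lay in the distal part. A width of at least 2 kb was reached by 69 distal peaks (3.83%, Wilson 95% interval 3.04% to 4.82%) and by 4 on the rest (0.193%, 0.0750% to 0.495%). The share over the whole list was 1.74%. The ratio of both shares, 19.9, rests on those 4 peaks. It was 4.38 with peaks joined within 1 kb (8.46% and 1.93%) and 7.42 with the boundary at 76 Mb. Of the 69, 56 lay before 90 Mb, 0 between 90 and 95 Mb and 13 beyond. Broad members also had broad neighbours: 45 of the 69 (65.2%) had another member of at least 2 kb within 100 kb, whereas 612 of all 1803 members (33.9%) had one. These shares were not matched for the number of peaks nearby. Of the 69 broad members, 48 (69.6%) scored 50 or more, against 493 (27.3%) of all 1803. Scores under 40 were held by 11 of the 69 and by 896 of all 1803.

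Peak scores were also somewhat higher in the distal part, by the median and by the shares below. They are on another scale than widths, so the sizes of both differences cannot be compared directly. The score is the value that the authors' caller gave each peak, taken here as 10 times the log10 of a p-value with its sign reversed. The lowest score was 30.01 in both the distal part and the rest, close to a p-value of 1e-03. The median score was 40.07 in the distal part (95% binomial order-statistic interval 39.42 to 40.89; interquartile range 34.1 to 51.6) and 38.44 on the rest (37.74 to 39.06; interquartile range 33.6 to 47.6). Scores of 50 or more were held by 493 distal peaks (27.3%, Wilson 95% interval 25.3% to 29.4%) and by 418 of the rest (20.1%, 18.5% to 21.9%). Over the whole list this share was 24.1%. Scores of 100 or more were held by 34 distal peaks (1.89%, 1.35% to 2.62%) and 17 of the rest (0.819%, 0.512% to 1.31%), against 1.66% over the whole list.

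The greater width was present at every level of score. Among the weakest peaks, with scores from 30 to 35, the median width was 716.5 bp in 532 distal peaks and 522 bp in 705 peaks of the rest. It was 826.5 bp against 626.5 bp for scores from 40 to 50, and 1033 bp against 691 bp for scores from 50 to 100. For scores of 100 or more it was 1472 bp in 34 distal peaks (95% order-statistic interval 1363 to 1937) and 887 bp in 17 of the rest (802 to 1072). In each of the 5 bands the intervals of the medians were apart, which is no test, since these widths had placed the boundary. The bands were not matched for the number of peaks per window. The reverse view gave another order. Among peaks 500 to 750 bp wide, 17.2% of 545 distal peaks (Wilson 95% interval 14.3% to 20.6%) scored 50 or more, against 22.0% of 899 on the rest (19.4% to 24.8%). Among those 750 to 1000 bp wide, the shares were 23.5% (19.7% to 27.7%) and 28.5% (23.9% to 33.6%). From 1 to 2 kb they were 40.4% (36.4% to 44.5%) and 41.3% (34.5% to 48.4%). Below 500 bp the order was the other way, with 11.9% (8.16% to 17.2%) and 6.92% (5.21% to 9.14%). From 500 bp to 2 kb the distal share was thus the lower one in each of these classes, with overlapping intervals. At 2 kb or more it was 69.6% of 69 distal peaks (57.9% to 79.2%) and 50% of 4 on the rest (15.0% to 85.0%). Across peaks, which share the libraries and the calling, score and width had a Spearman correlation of 0.32 in the distal part (n = 1803) and 0.34 on the rest (n = 2075).

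**Figure D1:**
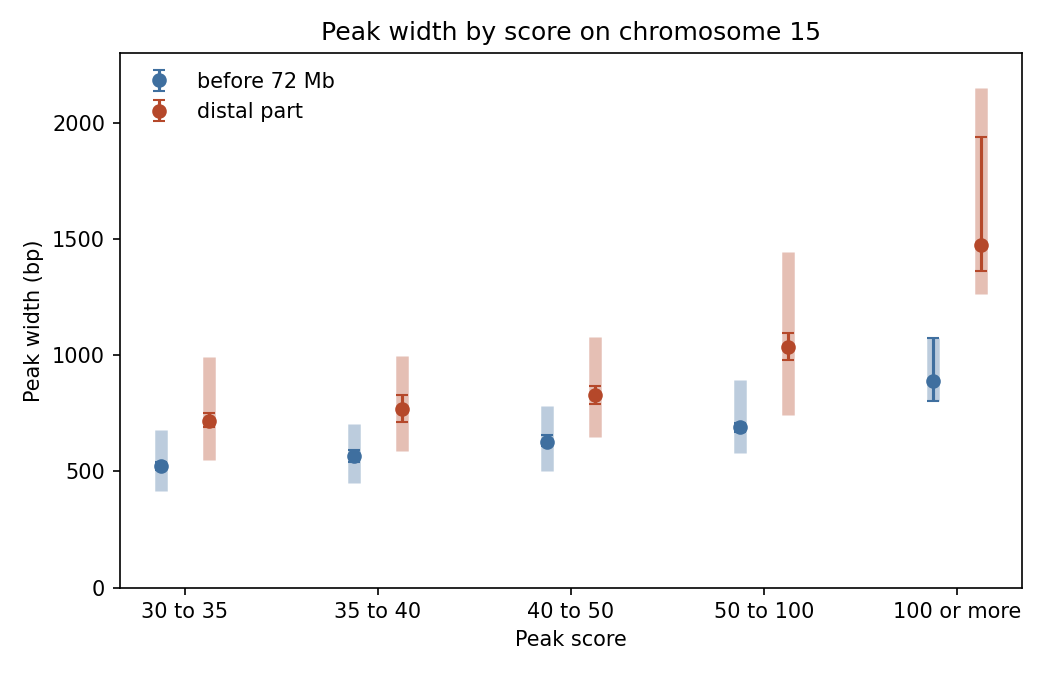
Peak width (bp) in 5 bands of the authors' score, for the distal part (red) and the rest of chromosome 15 (blue). Points are medians, thin bars their 95% binomial order-statistic intervals and broad bars the interquartile range over peaks; the distal median is the higher in each band, from 716.5 against 522 bp in the lowest to 1472 against 887 bp in the highest.

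The distal part was also the denser one. It carried 57.3 peaks per Mb over 31.5 Mb (95% Poisson interval 54.7 to 59.99), against 30.2 per Mb over 68.8 Mb (28.9 to 31.48) on the rest, a ratio of 1.90. It thus made up 31.4% of the length between the first and last peak and held 46.5% of the peaks. Peaks covered 5.50% of the distal part and 1.98% of the rest, a ratio of 2.79, with mean widths of 960.8 and 655.4 bp. Counts in the 31 complete 1 Mb windows of the distal part ran from 31 to 87 with a median of 59. In the 68 windows of the rest they ran from 11 to 58 with a median of 29.5. The ranges overlapped, but 17 distal windows held more peaks than any window of the rest. Window counts varied more than Poisson counts would, with a variance-to-mean ratio of 3.27 in the distal part and 4.02 on the rest, so the Poisson intervals are too narrow.

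The values differed between the windows next to the boundary, though not between the single peaks next to it. The 3 Mb before the boundary held 63 peaks (21.0 per Mb) with a median width of 572 bp, and the 3 Mb after it held 163 (54.3 per Mb) with a median of 883 bp. The last 3 peaks before the boundary were 673, 930 and 714 bp wide, with scores of 47.29, 49.49 and 35.04. The first 3 members were 562, 596 and 708 bp wide, with scores of 32.3, 33.4 and 50.4, and so were no wider than their neighbours before it. The last peak before the boundary was chr15:71979033-71979746 and the first member was chr15:72007777-72008338. Over 10 Mb on each side, the share scoring 50 or more was 20% of 265 peaks (Wilson 95% interval 15.6% to 25.2%) before and 27.9% of 630 peaks (24.6% to 31.6%) after.

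**Figure D2:**
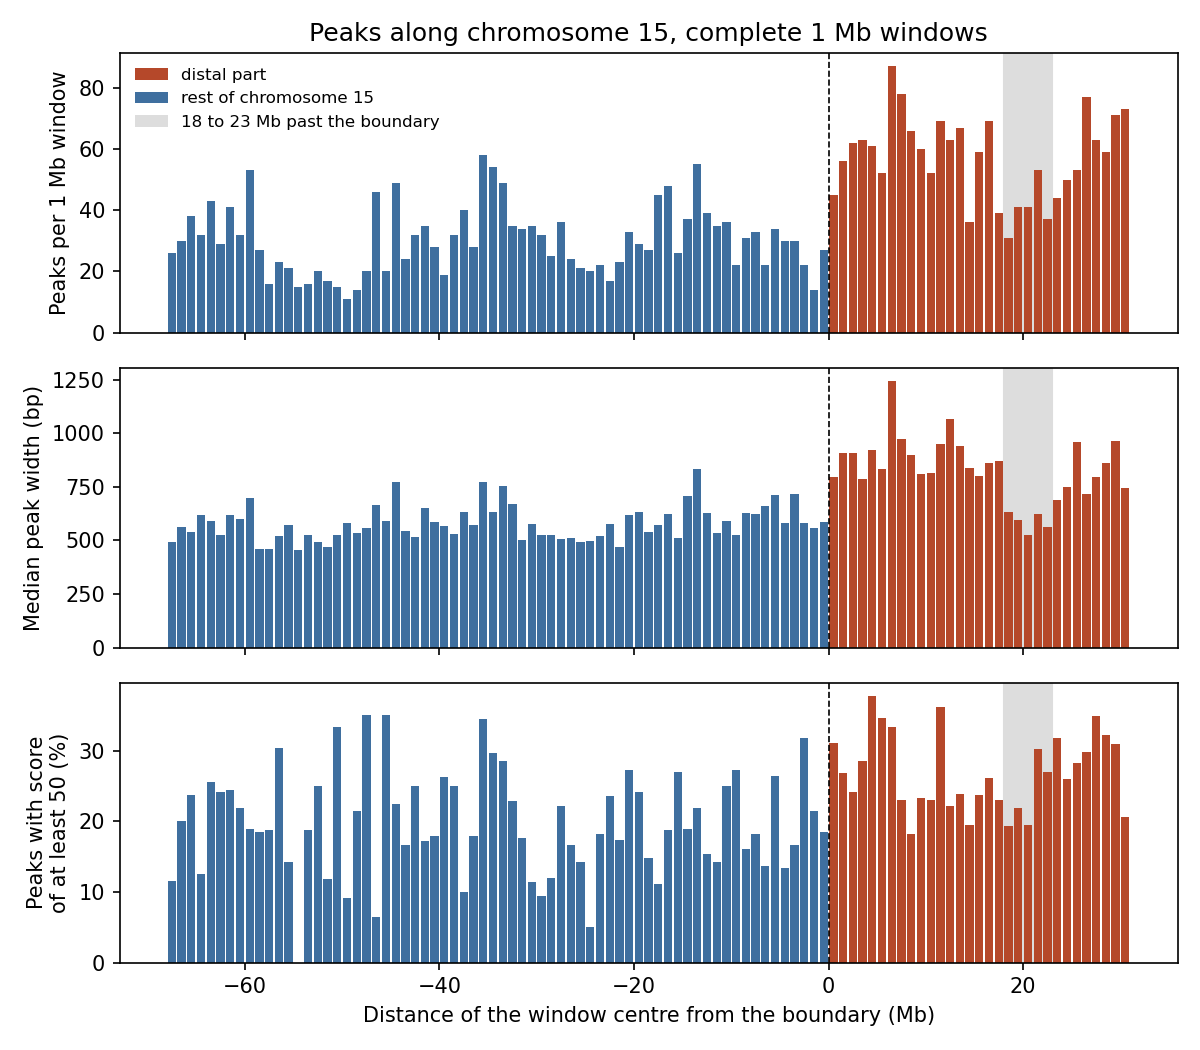
Number of peaks, median peak width (bp) and share of peaks scoring 50 or more (%) in complete 1 Mb windows of chromosome 15, by distance from the boundary (Mb), with the distal part in red and the rest in blue. Windows past the boundary hold 31 to 87 peaks with median widths of 527 to 1242 bp, and the grey band marks the stretch 18 to 23 Mb past it, where widths are back in the range of the rest.

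The distal part was not uniform. From 72 to 90 Mb it held 1084 peaks, 60.2 per Mb (95% Poisson interval 56.7 to 63.9), with a median width of 908 bp (95% order-statistic interval 880 to 940). From 90 to 95 Mb it held 203 peaks, 40.6 per Mb (35.2 to 46.6), with a median of 586 bp (560 to 623). From 95 Mb to the last peak it held 516 peaks, 60.8 per Mb (55.7 to 66.3), with a median of 812 bp (773 to 865). The middle stretch was chosen after its values were seen. Its median was 12 bp under the 598 bp of the chromosome's rest, while its density lay above the rest. The 5 windows from 90 to 95 Mb had medians of 631, 593, 527, 623 and 564 bp, all under 650 bp, with 31, 41, 41, 53 and 37 peaks. The median score and the share scoring 50 or more were slightly lower there. The median score was 38.51 in the middle stretch, 40.24 before it and 40.29 after it. In the middle stretch, 24.1% of peaks scored 50 or more (Wilson 95% interval 18.8% to 30.5%), against 26.8% (24.3% to 29.6%) before and 29.7% (25.9% to 33.7%) after it, with overlapping intervals, and 5 of its 203 peaks scored 100 or more. The widest 5 Mb step ran from 75 to 80 Mb, with 341 peaks, a median of 969 bp and 27 of the broad peaks.

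Window medians of width showed the same layout. They ran from 527 to 1242 bp over the 31 distal windows (median 834.5 bp) and from 456 to 835 bp over the 68 windows of the rest (median 574 bp). Of the distal windows 15 lay above every window of the rest. Only 1 window of the rest (58000001 to 59000000, 835 bp, 55 peaks) lay above the distal median. Only 2 distal windows, both between 90 and 95 Mb, lay below the median of the rest. The shares scoring 50 or more overlapped much more, from 18.2% to 37.7% (median 26.1%) in distal windows and from 0% to 35% (median 18.8%) in those of the rest.

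The fullest distal window, from 78000001 to 79000000, held 87 peaks with a median of 1242 bp, the highest count and the widest median of the chromosome. Its peaks covered 11.6% of it, and 29 scored 50 or more. The window after it held 78 peaks with a median of 972.5 bp. The next in order were 98000001 to 99000000 with 77 peaks (717 bp), 102000001 to 103000000 with 73 (745 bp) and 101000001 to 102000000 with 71 (963 bp). A high count did not always go with a wide median, as the windows with 77 and 73 peaks had medians under that of the distal part. The windows with fewest members began at 90, 86 and 94 Mb and held 31, 36 and 37 peaks, with medians of 631, 839 and 564 bp.

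Because windows with more peaks had wider peaks, the distal part was compared with the rest at like numbers of peaks per 1 Mb window. Window counts and median widths had a Pearson correlation of 0.65 and a Spearman correlation of 0.55 over the 31 distal windows, and of 0.68 and 0.62 over the 68 windows of the rest. Both measures come from the same calls. Only windows with 30 to 59 peaks occurred in both the distal part and the rest. The 15 distal windows with 60 or more peaks, with 1029 members (57.1%), had no counterpart on the rest of the chromosome.

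At like peak numbers the difference in width was smaller. In windows with 30 to 39 peaks the median width was 704 bp in 143 distal peaks (95% order-statistic interval 624 to 753) and 594 bp in 741 peaks of the rest (567 to 610). In windows with 40 to 49 peaks it was 646 bp in both, with intervals of 611 to 685 and 618 to 677. In windows with 50 to 59 peaks it was 825 bp (776 to 867) and 734.5 bp (688 to 774). Averaged over these bins with the distal peaks as weights, the medians were 761 and 687 bp, a ratio of 1.11 against 1.40 without matching. The matched value covers 748 members (41.5%) and the unmatched one all members, so these ratios rest on unlike sets of peaks. For peaks with a score under 40 the matched medians were 660 and 650 bp, a ratio of 1.02. The stretch from 90 to 95 Mb supplied 5 of the 16 distal windows of these bins. Without it, a setting chosen after seeing the data, the matched medians were 830 and 701 bp, a ratio of 1.18. With both restrictions the ratio was 1.04, resting on 193 and 121 peaks in windows with 50 to 59 peaks, the one bin left. Matching in windows of 500 kb kept more members, 1600, without either restriction. There the matched medians were 829 and 707 bp, a ratio of 1.17. The bins kept the same step in peaks per window, so in these shorter windows each bin spanned a wider range of density. This matching was therefore coarser, and more of the difference in density may remain within its bins. Its ratio cannot be set directly beside the 1.11 of the main matching.

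Averaged over the 3 bins, the shares scoring 50 or more were closer than the 27.3% and 20.1% without matching. The unmatched values cover all members, the matched ones only those in these bins. In windows with 40 to 49 peaks the shares were no closer than without matching. The share scoring 50 or more was 22.4% (Wilson 95% interval 16.3% to 29.9%) against 19.2% (16.5% to 22.2%) in windows with 30 to 39 peaks. It was 26.3% (20.3% to 33.4%) against 18.6% (14.9% to 22.9%) with 40 to 49, and 28.1% (24.1% to 32.5%) against 26.4% (21.0% to 32.6%) with 50 to 59. The distal share was the higher in each bin, and the intervals overlapped in each. The weighted shares were 26.6% and 23.2%. The next peak of the same window lay within 10 kb for 29.5%, 36.5% and 47.9% of distal peaks in the 3 bins, and for 31.6%, 37.4% and 47.2% of the rest. Spacing within windows differed by at most 2.08 percentage points in these bins. The number of peaks in a window of fixed length largely sets their gaps, so matching on it left little room for a difference.

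**Figure D3:**
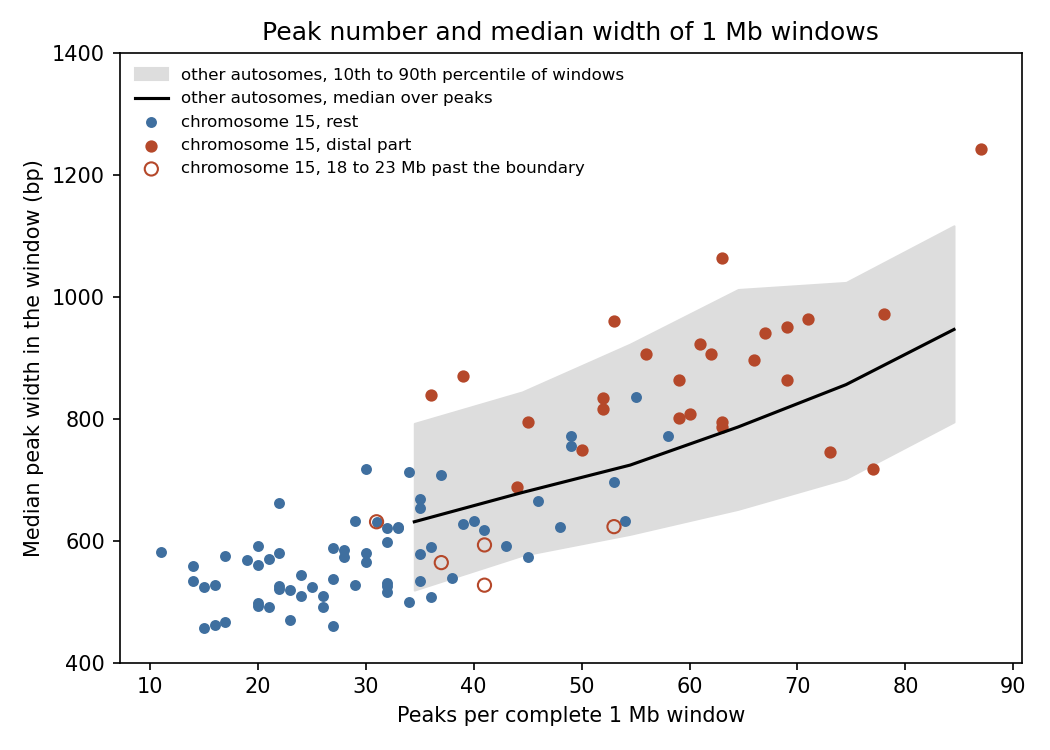
Median peak width (bp) against the number of peaks for each complete 1 Mb window of chromosome 15 (points), with the other autosomes as a line (median over peaks per bin of 10) and a grey band (10th to 90th percentile of windows). The 5 open circles lie 18 to 23 Mb past the boundary, at 527 to 631 bp, while the remaining distal windows reach from 688.5 to 1242 bp.

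Windows of the other autosomes with like peak numbers gave the distal windows above 60 peaks a counterpart. This comparison was added after the counts had been seen. In windows with 60 to 69 peaks, the median width was 897 bp in 643 distal peaks (95% order-statistic interval 849 to 940) and 786.5 bp in 6456 peaks of 101 windows elsewhere (774 to 800). With 70 to 79 peaks it was 878 bp (794 to 933) and 856 bp (833 to 872), and with 50 to 59 peaks 825 bp (776 to 867) and 724 bp (717 to 731). In windows with 40 to 49 peaks the distal median of 646 bp (611 to 685) was the lower one, against 679 bp (674 to 682). With 30 to 39 peaks it was 704 bp against 631 bp. The single distal window with over 80 peaks, at 1242 bp, lay above the 90th percentile of the 17 such windows elsewhere, 1117 bp. In every other bin the distal median, pooled over the windows of the bin, lay between the 10th and 90th percentiles of single window medians elsewhere. These were 519 to 792 bp with 30 to 39 peaks, 576 to 844 bp with 40 to 49 and 610.5 to 922.5 bp with 50 to 59. They were 651.5 to 1012 bp with 60 to 69 peaks and 702 to 1024 bp with 70 to 79. Some single distal windows fell outside these limits. Above them lay 839 and 870 bp with 30 to 39 peaks, 961 bp with 50 to 59 and 1064 bp with 60 to 69. Below them lay 527 bp with 40 to 49 peaks, and the remaining distal windows of these bins lay within. For scores the order varied between bins. The distal share scoring 50 or more was the lower one with 60 to 69 peaks, at 27.5% (Wilson 95% interval 24.2% to 31.1%) against 29.0% elsewhere (27.9% to 30.1%), and with 70 to 79 peaks, at 26.1% (21.4% to 31.3%) against 29.3% (27.8% to 30.8%). With 30 to 39 peaks it was 22.4% against 23.1%. It was the higher one with 40 to 49 peaks (26.3% against 24.6%), with 50 to 59 peaks (28.1% against 26.0%) and in the single window with over 80 peaks (33.3% against 30.4%).

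Distal peaks lay closer together than those of the rest. The median gap from the end of a peak to the next start was 10.4 kb (interquartile range 4.28 to 22.0 kb) in the distal part and 20.6 kb (7.88 to 44.6 kb) on the rest, a ratio of 0.51. The next peak lay within 10 kb for 877 of 1802 distal gaps (48.7%, Wilson 95% interval 46.4% to 51.0%) and for 620 of 2074 (29.9%, 28.0% to 31.9%) on the rest. Within 1 kb the shares were 7.60% (6.47% to 8.92%) and 5.21% (4.33% to 6.25%). The longest stretches without a member were 171.9 kb (94528306 to 94700187), 162.7 kb (90224612 to 90387349) and 138.0 kb (86022709 to 86160736). All of these fell in the windows with the fewest members, and the longest gap on the rest was 254.7 kb.

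**Figure D4:**
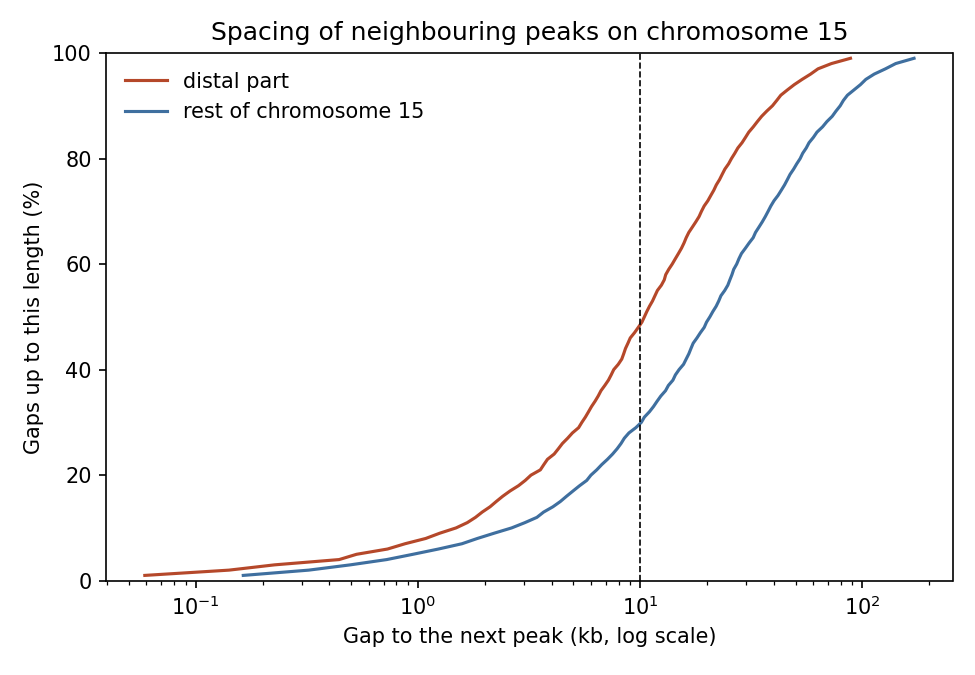
Share of gaps (%) up to a given length (kb, log scale) between neighbouring peaks of the distal part (red) and of the rest of chromosome 15 (blue); the dashed line marks 10 kb. From the 1st to the 99th percentile, which are drawn, the distal curve lies to the left, with a median gap of 10.4 kb against 20.6 kb.

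Runs of members with gaps of at most 1 kb were few: 113 had 2 peaks, 10 had 3 and 1 had more, among 1666 regions after joining. Peaks in such runs made up 14.5% of the distal part and 10.1% of the rest. The longest run, chr15:101627578-101635016, held 5 peaks over 7.44 kb. They were 754 to 1890 bp wide and weak, with scores from 32.9 to 43.1. Crowding over a longer distance went with width among the members that had at least 3 other peaks within 100 kb. The 96 members with 3 to 5 other peaks within 100 kb had a median width of 635.5 bp (95% order-statistic interval 578 to 714), the 302 with 6 to 8 had 711.5 bp (673 to 751), and the 1402 with 9 or more had 889.5 bp (862 to 910). On the rest of the chromosome the same classes had medians of 571, 596 and 647 bp. For peaks with 9 or more others nearby the distal peaks were thus wider by 242.5 bp, although their number nearby was not matched above 9. The share scoring 50 or more had no such order in the distal part, at 31.3%, 23.5% and 27.8%. Left out of these classes were peaks with 0 to 2 others nearby. Their medians were 733 bp in only 3 distal peaks and 573 bp in 169 of the rest.

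The 10 highest-scoring members had scores from 124.9 to 205.0 and ranked between 89 and 543 in the whole list. The first, chr15:99210903-99211913, had a score of 205.0 and was 1011 bp wide. The highest score of the rest of the chromosome was 223.7, in a 662 bp peak (63121838 to 63122499). The second member was chr15:77136071-77137611 with a score of 175.6 and a width of 1541 bp. Next came chr15:83081107-83083281 (149.7, 2175 bp), chr15:98636502-98639305 (148.3, 2804 bp) and chr15:81766247-81770324 (148.1, 4078 bp). The scores from the sixth to the tenth member ran from 140.6 down to 124.9. These were chr15:102912307-102913424, chr15:94419374-94420514, chr15:90879316-90880473, chr15:99287162-99288847 and chr15:78985740-78987503. Each of the 10 was at least 1 kb wide and had between 5 and 21 other peaks within 100 kb. Of them, 2 lay in the narrow stretch from 90 to 95 Mb.

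The 10 widest and the 10 highest-scoring members were mostly different peaks, although score and width had a Spearman correlation of 0.32 across all members. Only the peak at 81766247, the second in width and the fifth in score, was among the 10 first by both. The widest member, chr15:76027492-76031806, measured 4315 bp with a score of 41.6. The third, chr15:98672381-98676367, measured 3987 bp with a score of 36.4. Next were chr15:76367082-76370979 (3898 bp, score 44.1) and chr15:76349052-76352897 (3846 bp, 63.2), which lay within 20 kb of each other. The sixth to the tenth ranged from 3589 to 3097 bp, with scores from 37.3 to 112.3. These were chr15:84620305-84623893, chr15:97636572-97640116, chr15:84781387-84784653, chr15:78632019-78635191 and chr15:100590906-100594002. The widest peak on the rest of the chromosome, at 38398969 to 38402844, was 3876 bp wide with a score of 48.0.

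The ends of other autosomes were set beside the distal part of chromosome 15 over a like length. In the last 31.5 Mb of each of the 19 autosomes, chromosome 15 was the third in number of peaks, with 1803, after chromosomes 11 (1836) and 4 (1833). It was the third in median width, with 838 bp, after chromosome 1 (921 bp) and chromosome 4 (910 bp). It was the fourth in the share of peaks scoring 50 or more, with 27.3%, after chromosomes 5 (29.5%), 11 (29.1%) and 4 (28.6%). Against the rest of the same chromosome, its width ratio of 1.40 ranked second after chromosome 4 (1.49), and its density ratio of 1.90 ranked second after chromosome 2 (1.94). Over the 19 autosomes the median width ratio was 1.07, and the end was wider than the rest on 11 and denser on 14. The end of chromosome 2 was denser than its rest but had a median of 593 bp, whereas that of chromosome 1 had a median of 921 bp at 33.6 peaks per Mb. The boundary of chromosome 15 was placed by width and those of the other ends were not, so these ranks are a description.

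**Figure D5:**
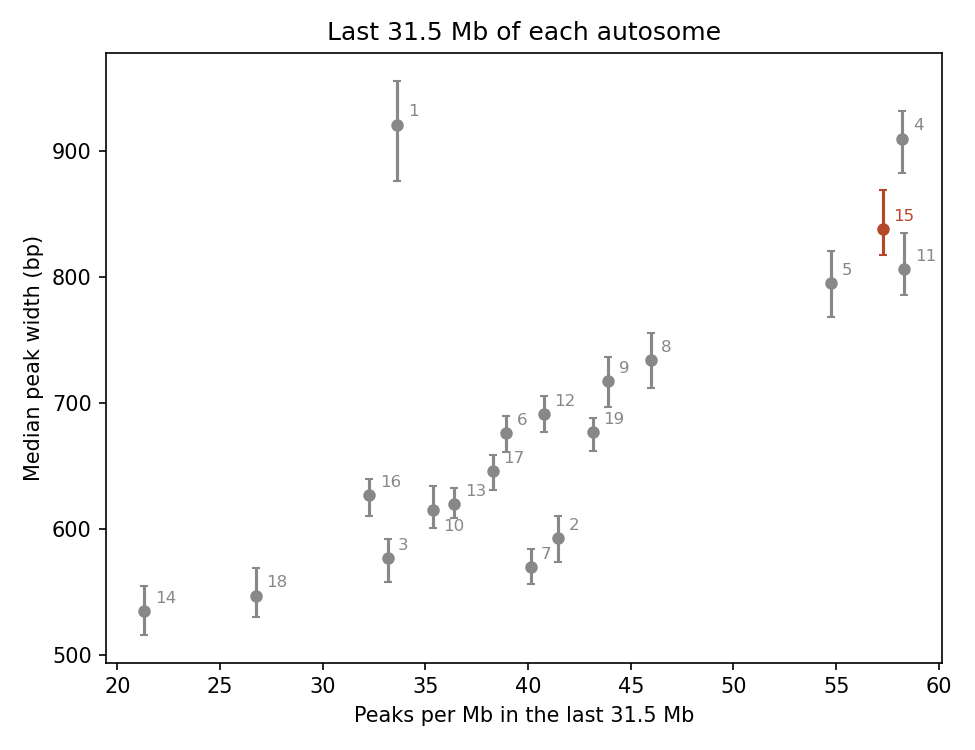
Median peak width (bp) against peaks per Mb in the last 31.5 Mb of each of the 19 autosomes, labelled by chromosome; bars are 95% binomial order-statistic intervals of the median. Chromosome 15 (red, 57.3 per Mb and 838 bp) lies close to chromosomes 4, 5 and 11 and far from chromosome 1.

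The end of chromosome 11 had values near those of chromosome 15, with a median width of 806.5 bp (95% order-statistic interval 786 to 835), 58.3 peaks per Mb and 3.70% of peaks of at least 2 kb. The distal end of chromosome 4 was taken from the position at which its widths differed most. Its 1618 peaks (chr4:128013231-155629225) had 58.6 peaks per Mb, a median width of 916.5 bp (95% order-statistic interval 891 to 944), 28.8% scoring 50 or more (Wilson 95% interval 26.6% to 31.1%) and 4.26% of at least 2 kb (3.38% to 5.36%). The distal part of chromosome 15 had the lower median, with intervals apart, while the intervals for density and for both shares overlapped. The proximal stretch of chromosome 7 (chr7:3194215-57970805) had a median width of 914 bp (880 to 962), and 12.5% of its 1574 peaks were of at least 2 kb (11.0% to 14.2%). It had 28.7 peaks per Mb, a value lowered by a gap of 7058 kb without a peak. The median gap on this stretch was 12.5 kb, against 10.4 kb in the distal part of chromosome 15. The next peak lay within 10 kb for 43.3% of gaps (40.9% to 45.8%) on chromosome 7, against 48.7% in the distal part of chromosome 15. Chromosome 1 had a median of 756 bp (747 to 764) at 33.8 peaks per Mb. The stretches of chromosomes 4 and 7 were placed by width, while chromosome 1 was taken whole.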

How the data were processed

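The data used were 1 list of ChIP-seq peaks from MIN6-4N cells, with 1 anti-HB9PO4 ChIP library and 1 input library. That the list sets one against the other was inferred. Per the submitters' processing notes, the authors used MACS 1.42 and the build mm9. Aligner and tag numbers, both not given in the sources used here, leave the sequencing depth unknown. The score deposited by the authors has no header and was read as 10 times the negative log10 of a p-value. Peak starts and ends are the other deposited values. Coordinates are printed 1-based.

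From these, medians with 95% binomial order-statistic intervals, shares with Wilson intervals and counts per Mb with exact Poisson intervals were computed. A group had 1 library, so no test was possible. Windows of 1 Mb were counted by midpoint, leaving out incomplete ones. Matched values are means over bins of 10 peaks per window, weighted by distal peaks, for bins with at least 50 peaks in both the distal part and the rest. The width ratio, the matching, the joining of peaks and the interval of the median were run on simulated peaks. Simulated widths did not depend on the number of peaks per window, as real ones did, so matching was not tested for that case. Gaps, crowding and the bins of the other autosomes were not simulated. The tools were Python 3.11.15 with scipy 1.17.1, pandas 2.3.3, numpy 2.4.6 and matplotlib 3.10.9.

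The regions named are the 10 highest-scoring and 10 widest members, the 5 fullest and 3 emptiest windows, runs of at least 4 peaks, the 3 longest gaps and the peaks beside the boundary, plus extremes of the rest. The members and these rules were chosen with earlier results of these data known. Alternatives were other score limits, joined peaks, other boundaries and other windows; 4 more were added after seeing the data. Annotation by gene was not made, since no mm9 annotation was used here.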

Additional observations from a re-analysis of the deposited data

How the results depend on the processing

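Ratios of the distal part to the rest of chromosome 15 were above 1 in all 39 combinations of the 7 results with their alternatives. The alternatives reuse mostly the same peaks, whose widths placed the boundary, so this count is no independent check. In 32 of the 39 combinations the ratio stayed within the range given by the 95% intervals of its 2 sides, and in 7 it left it. For the matched results that range included 1, at 0.984 to 1.24 for width and 0.766 to 1.72 for the share scoring 50 or more. The range divides distal limits by the opposite limits of the rest, and matched limits are averaged over bins. It is therefore wider than a 95% interval of the ratio, so staying within it or including 1 says little. At a minimum score of 50 the ratio of median widths was 1.54 and that of peaks per Mb 2.58, against 1.40 and 1.90 with all peaks, and that of neighbours within 10 kb was 2.09 against 1.63. At a minimum score of 100, which leaves 34 and 17 peaks, the ratios of width and of density were 1.66 and 3.96. With a score limit of 100 in place of 50, the ratio of shares was 2.30 against 1.36. With peaks joined within 1 kb, the ratio of shares of at least 2 kb was 4.38 against 19.9, which rests on 4 peaks of the rest, and with the boundary at 76 Mb it was 7.42. Moving the boundary to 68 or 76 Mb gave width ratios of 1.38 and 1.36. The matched width ratio ran from 1.02 with scores under 40 alone to 1.18 without the stretch from 90 to 95 Mb, and the matched ratio of shares scoring 50 or more from 1.09 to 1.14, against 1.11 and 1.15. No paired analysis was possible because each group has 1 library, and for the same reason no library could be left out. Unknown tag numbers limit statements on weak peaks.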
